A study of Mus musculus with 12 samples.

Results

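The expression of 10 imprinted genes with roles in growth was examined in mouse embryonic fibroblasts (MEFs): H19, Dlk1, Meg3, Peg3, Mest, Grb10, Plagl1, Ndn, Sgce and Peg10. All non-control array probes that carried the name of 1 of these genes were taken, Meg3 being listed under its older name Gtl2. This gave 22 of the 41174 distinct probes. Of these, 20 were well above background on every array of at least 1 group and were kept, and 9 of the 10 genes could be tested among 20836 genes in all. Peg10 was the gene without a kept probe.

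The cells came from E12.5 embryos on a C57Bl/6 background, and 4 groups of 3 arrays each were compared. GR-C3 Dex and GR-C3 vehicle cells were homozygous for a knockin of exon 2 of Nr3c1, the glucocorticoid receptor gene, in which the start codon of the GR-C3 isoform is the one left intact and those of the other isoforms are changed. WT Dex and WT vehicle cells carried the wild-type gene. Dex cells received 100 nM dexamethasone, a synthetic glucocorticoid that activates the receptor, for 6 h, and vehicle cells received the solvent for the same time. The knockin line derives from 1 embryonic stem cell clone. The hygromycin cassette used for its selection was deleted with Flp, and the neomycin cassette of the first targeting step was exchanged for the edited exon. The samples of a group are called biological replicates, without a statement on whether embryos or cultures were separate, so the p-values cover only the spread among the arrays of a group, which may be technical.

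Imprinted genes are transcribed mainly from the copy inherited from 1 parent, because DNA methylation set in the egg or sperm marks a control region. Many of them act on embryonic growth: those expressed from the paternal copy often promote it and those expressed from the maternal copy often restrain it. A set of them is co-expressed in growing tissues and falls together after birth, which is why it has been called an imprinted gene network. Plagl1, a zinc finger transcription factor, is a proposed regulator of that set, and H19, a maternally expressed noncoding RNA, lies next to Igf2, the gene of a fetal growth factor.

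Levels below are log2 signals on a scale whose 0 is the array's own 75th percentile, so they can be set side by side between arrays for 1 probe and not between probes. The ± after a log2 change is a standard error, and the ± after a mean is an SD (n = 3 arrays a group). A difference was called where the Benjamini-Hochberg adjusted p from limma was under 0.05. The array labelled as replicate 1 of WT vehicle was unlike the rest of its group. Across genes it correlated at 0.983 with the other WT vehicle arrays, at 0.987 to 0.989 with the WT Dex arrays, while the others of its group correlated with each other at 0.998. Fkbp5, a co-chaperone gene that glucocorticoids induce, lay there at 1.51, against -2.64 and -2.74 on the other WT vehicle arrays, and at 1.89 to 2.15 on the WT Dex arrays. Whether its label is right was not tested. Results are over all 12 arrays unless stated, and most of the members' tests against WT vehicle are also given over the 11 arrays without it. The share of probes detected well above background per array was 70.7 to 78.5%, and precision is limited by there being 3 arrays in a group.

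The members were read by 60-base probes, and those of H19 are shown because H19 was the member called higher in GR-C3 cells under vehicle. Probe positions are in build mm7, for which exon positions were not used. The Mest probe lies at chr6:30680425-30680484 on the plus strand. The first H19 probe lies at chr7:139003144-139003203 and the second at chr7:139003393-139003540, both on the minus strand. The second spans 148 bases of the genome with its 60 bases, so it is split over that stretch.
H19 probe 1: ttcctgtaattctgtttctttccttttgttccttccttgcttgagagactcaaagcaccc
H19 probe 2: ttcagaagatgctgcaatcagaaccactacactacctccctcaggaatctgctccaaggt

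Mest, Meg3 and Peg3, the 3 members that were lower in GR-C3 than in WT cells under vehicle, have promoter windows in the RefSeq table (build GRCm38.p6, 250 bases before to 50 after the annotated start). For each, the window with the most CpG, the dinucleotide that carries the parental methylation mark, is printed, with CpG in capitals. The Mest window at chr6:30737800-30738099 (plus strand) holds 17 CpG, and 31.4% of the 32851 windows in the table hold at least as many. A window that starts 3 bases on also holds 17, and the remaining Mest window holds 8. The Meg3 window at chr12:109540746-109541045 (plus strand) and the Peg3 window at chr7:6730370-6730669 (minus strand) hold 13 CpG each, against a median of 7 over all windows. The other Meg3 window holds 1 CpG, a number that 94.6% of windows reach. Of the Grb10 windows, the one at chr11:12037371-12037670 holds 45 CpG, which 1.93% of windows reach, and the other holds 9. The windows of Plagl1, Ndn and Dlk1 hold 26, 11 and 9. Methylation was not measured in these samples.
Mest promoter: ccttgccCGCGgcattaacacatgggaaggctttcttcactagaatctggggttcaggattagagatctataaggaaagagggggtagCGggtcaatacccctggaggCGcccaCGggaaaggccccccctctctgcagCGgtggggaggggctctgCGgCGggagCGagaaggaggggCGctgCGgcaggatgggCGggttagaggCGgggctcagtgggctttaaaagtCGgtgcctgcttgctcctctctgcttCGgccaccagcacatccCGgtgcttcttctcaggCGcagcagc
Meg3 promoter: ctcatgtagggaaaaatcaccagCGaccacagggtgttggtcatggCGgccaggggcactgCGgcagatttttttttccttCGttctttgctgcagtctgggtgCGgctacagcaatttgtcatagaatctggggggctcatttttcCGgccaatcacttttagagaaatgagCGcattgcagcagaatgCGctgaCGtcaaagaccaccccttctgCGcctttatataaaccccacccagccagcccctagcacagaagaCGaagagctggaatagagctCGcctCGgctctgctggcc
Peg3 promoter: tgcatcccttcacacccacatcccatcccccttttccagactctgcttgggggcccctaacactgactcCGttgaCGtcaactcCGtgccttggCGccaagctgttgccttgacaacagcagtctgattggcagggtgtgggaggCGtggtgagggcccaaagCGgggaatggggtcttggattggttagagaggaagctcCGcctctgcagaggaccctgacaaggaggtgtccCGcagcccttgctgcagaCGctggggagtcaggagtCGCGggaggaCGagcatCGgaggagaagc

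In the 11 windows of the 7 members found in the table, the glucocorticoid response element was searched on both strands. The half-site AGAACA was in none of them and in 6233 of all windows (19%). The palindrome, AGAACA and TGTTCT with 3 bases of any kind between them, contains that half-site and was in 3 of all windows (0.00913%). A missing match says only that these letters are not in these windows.

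Under vehicle, the first comparison, Mest was 5.86-fold lower and H19 1.95-fold higher in GR-C3 than in WT cells, and Peg3 and Meg3 were lower as well. These 4 of the 9 tested members were called, 1 higher and 3 lower. The genotype difference was broad: 24.8% of all 20836 genes were called, 14.6% higher and 10.2% lower in GR-C3 cells. The arrays of both groups did not overlap for 7 of the 9 members, against 43.5% of all genes. The median log2 change was -0.22 over the members and 0.11 over all genes. No test of the members as a set was made. Over 11 arrays 4 members were called too, with 27.3% of all genes called.

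Mest, a paternally expressed gene of the alpha/beta-hydrolase family whose loss slows fetal growth in mice, had 1 probe. It lay at 2.33, 2.14 and 2.33 on the GR-C3 vehicle arrays, against 5, 4.44 and 5.01 on the WT vehicle arrays. Every GR-C3 value lay more than 2 log2 units below every WT value. The log2 change was -2.55 ± 0.15 (adjusted p = 1.45e-06) over 12 arrays and -2.46 ± 0.16 (adjusted p = 5.2e-06) over 11. Under Dex the Mest levels were 2.57, 2.68 and 2.49 in GR-C3 cells and 4.89, 4.76 and 4.63 in WT cells. This is a log2 change of -2.18 ± 0.15 (adjusted p = 3.8e-06), and the change of the difference with treatment did not pass the test (interaction 0.37 ± 0.22, adjusted p = 0.849). Over 11 arrays the interaction was 0.28 ± 0.21 (adjusted p = 0.581). On the slide that held both genotypes, GR-C3 vehicle minus WT Dex was -2.46 for Mest, although those arrays differ in treatment too.

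H19 lay at 3.33, 2.92 and 3.35 on the GR-C3 vehicle arrays, against 2.14, 2.05 and 2.51 on the WT vehicle arrays. The groups did not overlap, and the log2 change was 0.97 ± 0.19 (adjusted p = 0.00362) over 12 arrays and 0.92 ± 0.21 (adjusted p = 0.00984) over 11. The second H19 probe changed by 0.86 ± 0.19 (adjusted p = 0.00848, fitted over all probes), and by 0.78 ± 0.21 over 11 arrays (adjusted p = 0.0222). Under Dex the genotypes overlapped for H19, with 3.13, 3.54 and 3.53 in GR-C3 cells and 3.17, 3.05 and 3.52 in WT cells. The log2 change there was 0.15 ± 0.19 (adjusted p = 0.557). The order of the group means was 3.40 ± 0.23 in GR-C3 Dex, 3.25 ± 0.24 in WT Dex, 3.20 ± 0.24 in GR-C3 vehicle and 2.23 ± 0.24 in WT vehicle. The first 3 lay within 1 SD of each other, and WT vehicle was the group apart.

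Meg3, a maternally expressed noncoding RNA of the Dlk1-Dio3 cluster, lay at 4.84, 4.90 and 5.07 in GR-C3 vehicle cells and at 5.66, 5.64 and 5.91 in WT vehicle cells. The groups did not overlap. The log2 change was -0.80 ± 0.24 (adjusted p = 0.0326) over 12 arrays and -0.84 ± 0.27 (adjusted p = 0.0475) over 11. This call was lost without WT vehicle replicate 2 or 3 or without any 1 of the 3 GR-C3 vehicle arrays, where the adjusted p was 0.0552 to 0.0979. The array holds 5 Meg3 probes between position 107070994 and 107092756 of chromosome 12, and all of them were lower in the mean of GR-C3 vehicle cells. Their log2 changes ran from -1.08 to -0.80, and 4 of the 5 were called (smallest adjusted p = 0.000293), against 23.3% of all 30935 kept probes. Over 11 arrays all 5 were called, against 26.8% of all kept probes. Under Dex the main probe lay at 4.93, 4.07 and 4.30 in GR-C3 cells and at 5.36, 5.02 and 5.87 in WT cells, a log2 change of -0.99 ± 0.24 (adjusted p = 0.0109). There 4 of the 5 probes were called, against 27.7% of all kept probes. They changed by -1.18 to -0.62, and the other gave -0.21 ± 0.29 (adjusted p = 0.61). Dlk1, the paternally expressed neighbour of Meg3 and the gene of a membrane protein that restrains adipocyte differentiation, lay at 2.17 to 2.21 in GR-C3 vehicle cells and at 1.98 to 2.19 in WT vehicle cells. Its log2 change of 0.14 ± 0.098 was not called (adjusted p = 0.34), nor was the change of 0.12 ± 0.10 over 11 arrays, and its second probe gave 0.05.

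Peg3, a paternally expressed zinc finger gene linked in mice to growth and maternal behaviour, lay at -2.30, -2.51 and -2.82 in GR-C3 vehicle cells and at -1.49, -1.71 and -1.39 in WT vehicle cells. No value overlapped. The log2 change was -1.01 ± 0.24 (adjusted p = 0.0106) over 12 arrays and -0.99 ± 0.28 (adjusted p = 0.0241) over 11, and the second kept probe changed by -0.73 (adjusted p = 0.0154) over 12 and by -0.97 (adjusted p = 0.000453) over 11. The third Peg3 probe was not well above background on any array and was not tested. Under Dex the log2 change of Peg3 was -0.85 ± 0.24 (adjusted p = 0.0218). WT Dex was the wider group there, with levels of -1.27, -2.14 and -1.21, against -2.18, -2.39 and -2.59 in GR-C3 Dex. Without WT Dex replicate 1 or 3, or GR-C3 Dex replicate 2 or 3, the call was lost (adjusted p = 0.0569 to 0.0898).

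**Figure D1:**
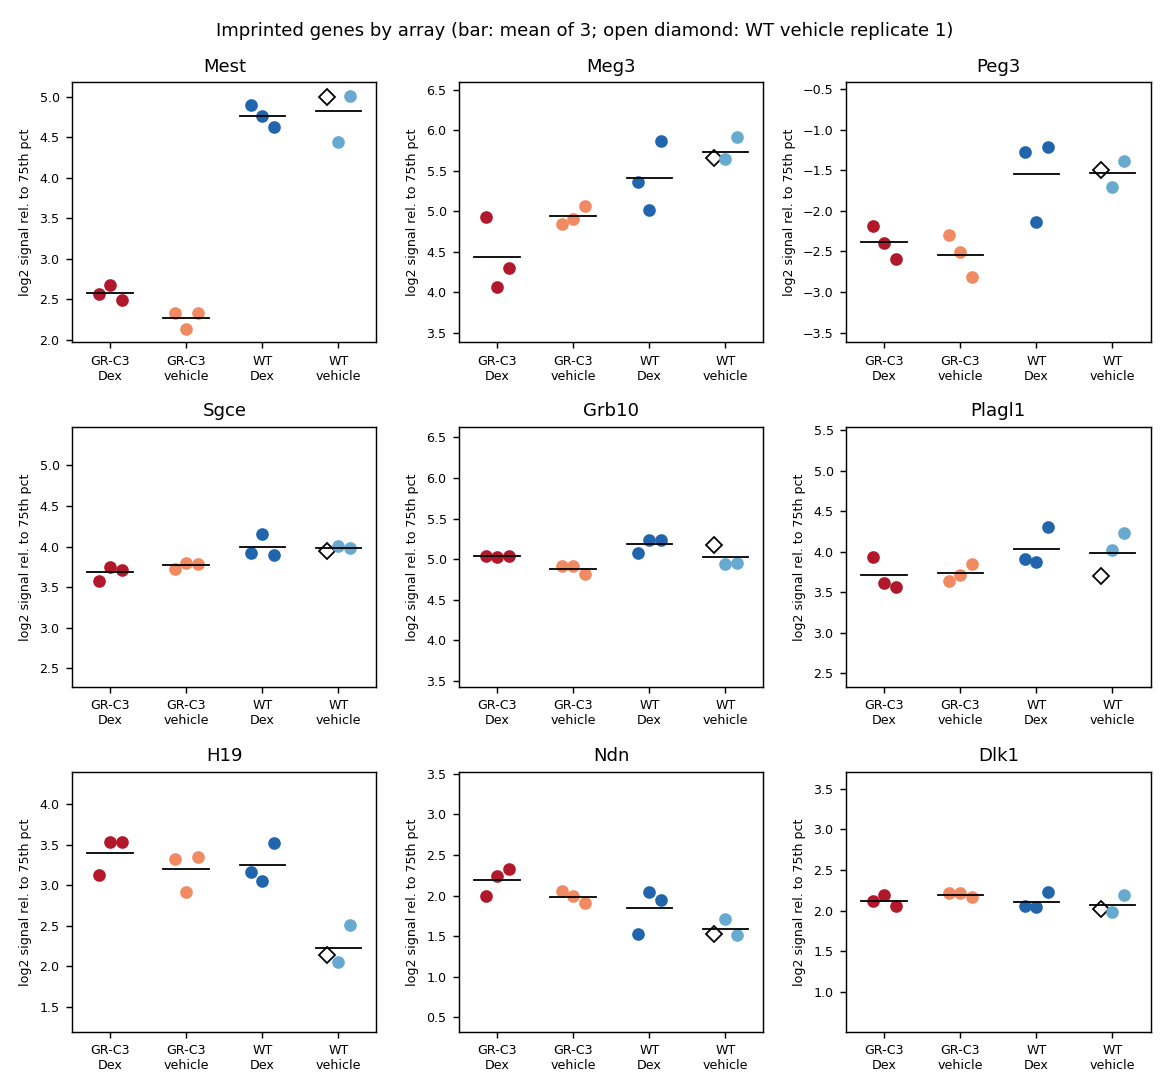
Level of the 9 tested imprinted genes on each of the 12 arrays, as log2 signal relative to the array's 75th percentile, with every panel spanning the same number of log2 units; points are arrays, bars are means of 3 and the open diamond is WT vehicle replicate 1. Mest lies at 2.14 to 2.68 on the 6 GR-C3 arrays and at 4.44 to 5.01 on the 6 WT arrays, and H19 is low in WT vehicle.

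For Grb10, Plagl1, Ndn and Sgce the change of the gene was not called under vehicle, over 12 or 11 arrays. Grb10, a maternally expressed adaptor that inhibits insulin and IGF receptor signalling, lay at 4.81 to 4.92 in GR-C3 vehicle cells and at 4.94 to 5.17 in WT vehicle cells, a log2 change of -0.14 ± 0.097 (adjusted p = 0.316) over 12 arrays and -0.07 ± 0.086 over 11. Plagl1 gave -0.25 ± 0.17 (adjusted p = 0.31) over 12 arrays, where its groups overlapped. Over 11 arrays they did not overlap, and it gave -0.39 ± 0.16 (adjusted p = 0.0974). Ndn, a paternally expressed gene whose protein necdin restrains cell division, lay at 1.91 to 2.05 in GR-C3 vehicle cells and at 1.51 to 1.71 in WT vehicle cells. The groups did not overlap, but the log2 change of 0.41 ± 0.14 did not pass the adjusted test (adjusted p = 0.0616), nor did 0.38 ± 0.16 over 11 arrays (adjusted p = 0.104). Sgce, the gene of epsilon-sarcoglycan, gave -0.22 ± 0.10 under vehicle (adjusted p = 0.143), and -0.23 ± 0.10 over 11 arrays (adjusted p = 0.127). Under Dex it was called with -0.31 ± 0.10 (adjusted p = 0.0383). That call was lost in 9 of the 12 fits that left out 1 array, with adjusted p of up to 0.128.

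Sgce and Grb10 each had 1 probe called under vehicle although the probe used for the gene was not, so sequences of their probes are shown. Both genes lie on the minus strand, and in both the probe with the larger change is the one at the higher coordinate, nearer the 5′ side of the gene. Signal strength differed too. In WT vehicle that probe lay at a mean of 1.89 for Sgce, against 3.98 for the probe used for the gene. For Grb10 it lay at -0.22, against 5.02, and the remaining Grb10 probe lay at -1.91. Sgce probe 1 (chr6:4627343-4627402) changed by -0.22 ± 0.10 under vehicle (adjusted p = 0.156 in the fit over probes). Sgce probe 2, whose 60 bases are split over chr6:4644526-4646966, changed by -0.70 ± 0.12 (adjusted p = 0.00195), and by -0.80 ± 0.11 over 11 arrays (adjusted p = 0.000569). It lay at 1.19, 1.16 and 1.22 in GR-C3 vehicle cells and at 1.69, 1.92 and 2.07 in WT vehicle cells. Grb10 probe 1 (chr11:11882970-11883029) changed by -0.14 ± 0.10 and probe 2 (chr11:11885585-11886233) by -0.29 ± 0.14, neither called. Grb10 probe 3 (chr11:11922579-11922638) changed by -0.81 ± 0.16 (adjusted p = 0.00412), with levels of -1.07, -0.81 and -1.21 in GR-C3 vehicle cells and -0.15, -0.36 and -0.16 in WT vehicle cells. Over 11 arrays its change was -0.77 ± 0.17 (adjusted p = 0.00993). Under Dex, Sgce probe 2 still differed by -0.58 ± 0.12 (adjusted p = 0.00532), and Grb10 probe 3 by -0.23 ± 0.16 (adjusted p = 0.303). The difference between probes of a gene was not tested.
Sgce probe 2: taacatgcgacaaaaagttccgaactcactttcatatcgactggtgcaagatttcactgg
Grb10 probe 2: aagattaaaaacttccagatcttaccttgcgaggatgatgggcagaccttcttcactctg
Grb10 probe 3: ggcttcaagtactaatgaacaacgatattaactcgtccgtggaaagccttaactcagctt

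Over probes, 11 of the 20 kept member probes were called under vehicle, 2 higher and 9 lower in GR-C3 cells, against 13.1% of all kept probes higher and 10.3% lower. Probes of 1 gene share its transcripts and are not independent. The 2 higher probes were those of H19.

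**Figure D2:**
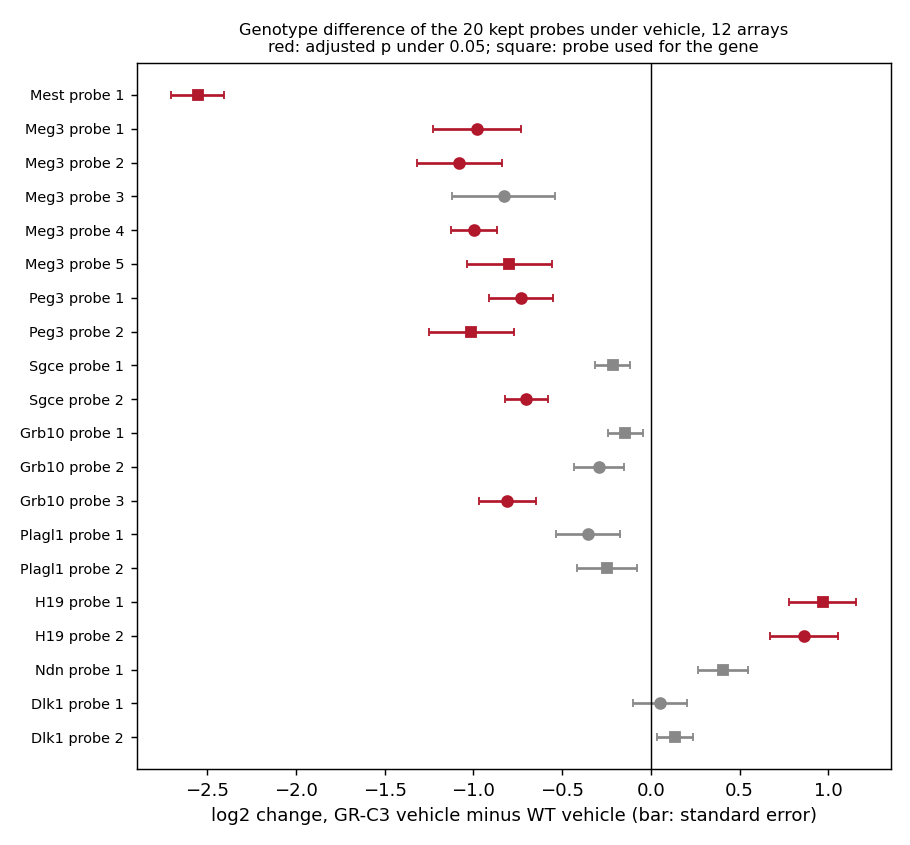
Log2 change, GR-C3 vehicle minus WT vehicle, of the 20 kept probes over 12 arrays, with its standard error; red marks an adjusted p under 0.05 and squares mark the probe used for the gene, probes of a gene being numbered by coordinate. The 5 Meg3 probes lie between -1.08 and -0.80, and 1 Sgce probe (-0.70) and 1 Grb10 probe (-0.81) are called while the other probes of those genes are not.

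Peg10, a paternally expressed gene derived from a retrotransposon and needed in the placenta, was near background. It lay at -6.97, -7.57 and -7.45 in GR-C3 Dex, -7.04, -7.63 and -6.63 in GR-C3 vehicle, -8.51, -8.39 and -8.75 in WT Dex and -7.14, -8.13 and -8.46 in WT vehicle. Its probe was well above background on 1 of the 12 arrays, a GR-C3 vehicle array, so no fold is given.

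Under Dex, 4 of the 9 members were called, all lower in GR-C3 than in WT cells, against 29.6% of all genes (12.1% lower). They were Mest, Meg3, Peg3 and Sgce. The count was also 4 over 11 arrays, where 40.7% of all genes were called. H19 was called under vehicle and not under Dex, and the test of that difference did not pass: the interaction, which subtracts the Dex change in WT cells from that in GR-C3 cells, was -0.82 ± 0.26 (adjusted p = 0.648) over 12 arrays and -0.77 ± 0.28 (adjusted p = 0.258) over 11. None of the 9 members had a called interaction by limma, while at an unadjusted p under 0.05 there was 1, H19. Over all genes 0% had a called interaction over 12 arrays and 1.14% over 11, and 6.15% had an unadjusted p under 0.05 over 12.

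Dex in WT cells gave its largest log2 change among the members in H19. H19 lay at 3.17, 3.05 and 3.52 in WT Dex, against 2.14, 2.05 and 2.51 in WT vehicle. The groups did not overlap, and the log2 change was 1.01 ± 0.19, which missed the threshold over 12 arrays (adjusted p = 0.0682). Over 12 arrays, limma called 0 of the 9 members and 0.12% of all genes, and 1 member, H19, had an unadjusted p under 0.05, as did 16.7% of all genes. Over 11 arrays H19 was called with 0.97 ± 0.21 (adjusted p = 0.0149), and 12.2% of all genes were. WT vehicle replicate 1, where Fkbp5 lay near the WT Dex arrays, held H19 at 2.14, between its 2 group members. Within the slide that held WT Dex and WT vehicle arrays, H19 differed by 0.89. The second H19 probe changed by 0.83 ± 0.21 over 11 arrays (adjusted p = 0.0321).

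Meg3 gave a mixed reading with Dex in WT cells. Over 11 arrays, 2 of its 5 probes were called lower, with log2 changes of -0.74 ± 0.11 (adjusted p = 0.00292) and -0.98 ± 0.28 (adjusted p = 0.0494), against 11.3% of all kept probes called. The other 3 gave -0.36, -0.18 and -0.35 and were not called. Neither of the 2 was called over 12 arrays, where the adjusted p was 0.0916 and 0.241 and 0.0485% of all kept probes were called. Grb10 probe 3 gave -0.48 ± 0.16 over 12 arrays and Ndn 0.26 ± 0.14, neither called (adjusted p = 0.188 and 0.383). Over 11 arrays they gave -0.445 ± 0.17 and 0.233 ± 0.16, again not called (adjusted p = 0.135 and 0.374).

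Dex in GR-C3 cells left no member past the threshold. Limma called 0 of 9, and 0 had an unadjusted p under 0.05, against 0.101% and 11.8% of all genes over 12 arrays. Over 11 arrays 3.47% of all genes were called. H19 changed by 0.20 ± 0.19 (adjusted p = 0.696), with levels of 3.13, 3.54 and 3.53 in GR-C3 Dex and 3.33, 2.92 and 3.35 in GR-C3 vehicle. Meg3 changed by -0.51 ± 0.24 (adjusted p = 0.44) and Mest by 0.31 ± 0.15 (adjusted p = 0.46). For Mest and Grb10 the Dex arrays lay above all vehicle arrays, a pattern that 29% of all genes showed in either direction. Within the slide that held 1 GR-C3 vehicle and the 3 GR-C3 Dex arrays, H19 differed by 0.04 and Meg3 by -0.64.

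The imprinted neighbours of the members were read next, since neighbours in a cluster share control regions. Of 43 listed neighbours 35 were tested. Under vehicle 5 were higher and 7 lower in GR-C3 than in WT cells, against 14.6% and 10.2% of all genes. The median of the neighbours was -0.10, against 0.11 over all genes. Igf2, which shares enhancers with H19, lay at 4.21, 4.13 and 4.27 in GR-C3 vehicle cells and at 1.73, 1.79 and 2.15 in WT vehicle cells. Its log2 change was 2.31 ± 0.12 (adjusted p = 5.97e-07), so H19 and Igf2 were both higher. Farther along the same chromosome region, Slc22a18, a maternally expressed transporter gene, changed by -2.11 ± 0.12 (adjusted p = 1.02e-06). Cdkn1c, the maternally expressed gene of a cyclin-dependent kinase inhibitor, was not called (-0.62 ± 0.29, adjusted p = 0.145). Without WT vehicle replicate 1 its change was -0.18 ± 0.11 (adjusted p = 0.273). In the Sgce and Peg10 cluster, Asb4 changed by 1.37 ± 0.13 (adjusted p = 3.27e-05), while Casd1 was not called (-0.13 ± 0.14, adjusted p = 0.541). Next to Grb10, Cobl, an actin nucleator gene, changed by -1.52 ± 0.11 (adjusted p = 6.45e-06). Copg2, which overlaps the Mest locus, gave -0.20 ± 0.10 and was not called (adjusted p = 0.19). Beside Meg3, neither Mirg (-0.39 ± 0.30, adjusted p = 0.38) nor Dio3 (0.13 ± 0.24, adjusted p = 0.727) was called. Rian, also beside Meg3, was added after its values were seen. It lay at -1.12, -1 and -1.12 in GR-C3 vehicle cells. In WT vehicle cells it lay at 3.89, -1.62 and -1.48, where 3.89 is replicate 1. Under Dex it lay at -1.07, -1.26 and -1.34 in GR-C3 cells and at -1.71, -2.11 and -2.48 in WT cells. Over 11 arrays 5 of the listed neighbours were again higher and 7 lower, with 27.3% of all genes called. Copg2 gave -0.12 ± 0.094 and Dio3 0.38 ± 0.21 over those 11 arrays, neither called.

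Among 9 other genes of the imprinted gene network, 4 were higher and 1 was lower in GR-C3 than in WT cells under vehicle. The shares over all genes were 14.6% higher and 10.2% lower. The median of the 9 genes was -0.23. Beside Igf2, the amino acid transporter gene Slc38a4 changed by 1.89 ± 0.13 (adjusted p = 2.91e-06) and Nnat, the gene of the proteolipid neuronatin, by 2.94 ± 0.36 (adjusted p = 0.000182). Without WT vehicle replicate 1 the change of Nnat was 2.38 ± 0.11. Dcn, the gene of the matrix proteoglycan decorin, changed by -0.86 ± 0.092 (adjusted p = 7.25e-05). Over all 58 tested imprinted genes other than the members, some of which are imprinted only in certain tissues, 10 were higher, 11 lower and 37 not called. Their median was 0.03, against 0.11 over all genes, of which 24.8% were called.

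**Figure D3:**
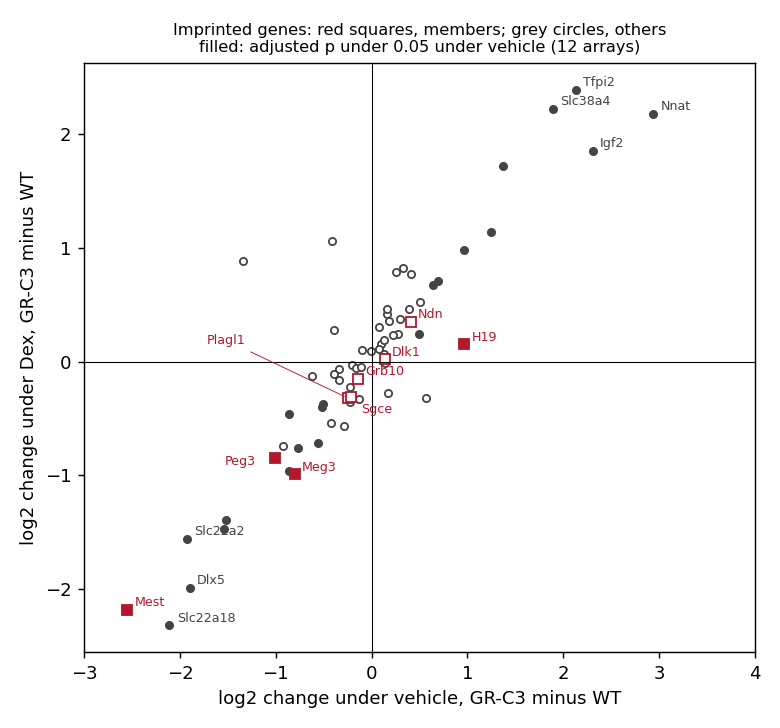
Log2 change, GR-C3 minus WT, under vehicle (x axis) and under Dex (y axis) for the 9 tested members (red squares) and 58 other imprinted genes (grey circles), over 12 arrays; filled symbols had an adjusted p under 0.05 under vehicle. Mest lies at the low end of both axes (-2.55 and -2.18), and H19 is at 0.97 under vehicle and 0.15 under Dex.

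With Dex, H19 and its neighbours differed in how they read on WT vehicle replicate 1. Igf2 lay at 2.48, 2.38 and 2.36 in WT Dex and at 1.73, 1.79 and 2.15 in WT vehicle, where 1.73 is replicate 1. Its change in WT cells was 0.52 ± 0.12 (adjusted p = 0.107) over 12 arrays and 0.44 ± 0.12 (adjusted p = 0.0367) over 11. Cdkn1c lay at 1.83, 1.92 and 1.75 in WT Dex, against 2.28, 0.99 and 0.90 in WT vehicle, and replicate 1 was the high one. Over 11 arrays Cdkn1c changed by 0.94 ± 0.10 in GR-C3 cells (adjusted p = 0.00103) and by 0.89 ± 0.11 in WT cells (adjusted p = 0.000843), with an interaction of 0.05 ± 0.15. Over 12 arrays neither was called, with an adjusted p of 0.242 in GR-C3 cells and 0.457 in WT cells.

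**Figure D4:**
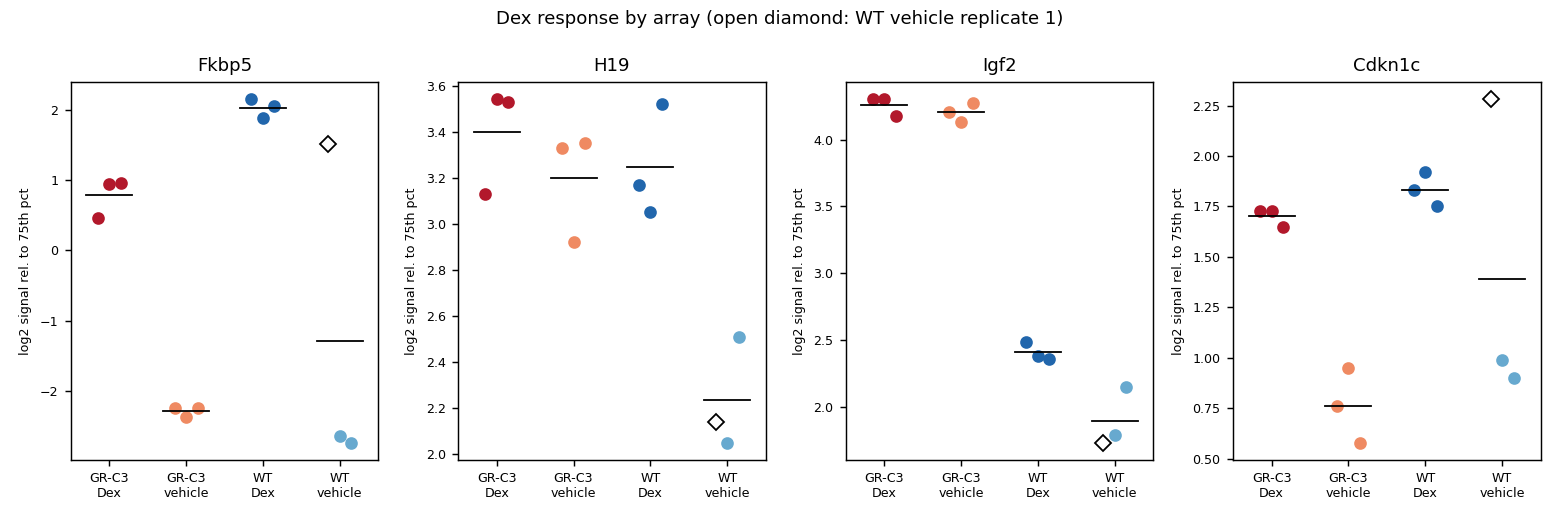
Level of Fkbp5, H19, Igf2 and Cdkn1c on each array, as log2 signal relative to the array's 75th percentile; points are arrays, bars are means of 3 and the open diamond is WT vehicle replicate 1. That array lies near the Dex arrays for Fkbp5 and Cdkn1c and with the other WT vehicle arrays for H19 and Igf2.

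Markers of cell types moved with genotype beside these genes, in a comparison where 14.6% of all genes were called higher and 10.2% lower. Their summed signals weight each list towards its brightest probe, so single genes are given too for some lists. For the fibroblast, proliferation, neural and macrophage lists only counts and sums are given. All 11 fibroblast markers were well above background on all arrays, 1 higher and 2 lower in GR-C3 vehicle cells, with a summed linear signal of 1110 to 1390 times the 75th percentile in GR-C3 vehicle and 1000 to 1170 in WT vehicle. All 5 tested chondrocyte markers of 6 listed were lower in GR-C3 vehicle cells, with a summed level of 6.41 to 6.73, against 45.6 to 51.7 in WT vehicle. Col2a1, the cartilage collagen gene, changed by -3.21 ± 0.10 (adjusted p = 6.51e-08) and made up 67.3 to 68.6% of the sum in GR-C3 vehicle and 86.6 to 87.9% in WT vehicle. Sox9, the transcription factor gene of cartilage, changed by -1 ± 0.20 (adjusted p = 0.00456) and Comp, a cartilage matrix gene, by -2.17 ± 0.20 (adjusted p = 2.9e-05). Of 7 tested skeletal muscle markers 4 were higher, and the list summed to 77.5 to 94.9 in GR-C3 vehicle and 46.3 to 55.6 in WT vehicle, with Myf5 well above background on no array. Actc1, a muscle actin gene with 75.6 to 76.8% of that sum in GR-C3 vehicle and 78.9 to 79.8% in WT vehicle, changed by 0.71 ± 0.13, and Des, the gene of the muscle filament desmin, by 3.59 ± 0.15 (adjusted p = 1.94e-07). Myod1 and Myog, on the same list, overlapped between the groups. Myod1 lay at -2.63, -2.44 and -1.87 in GR-C3 vehicle and at -2.54, -2.43 and -2.60 in WT vehicle. Myog lay at -3.61, -3.61 and -3.48 and at -4.21, -3.53 and -3.71. Of 6 proliferation markers 4 were higher, with sums of 18.5 to 19 in GR-C3 vehicle and 12.7 to 14 in WT vehicle. Of 6 neural markers 3 were higher, with sums of 25.8 to 27.7 in GR-C3 vehicle and 12.8 to 17 in WT vehicle. Of 3 tested epithelial markers 2 were higher (1 over 11 arrays), with sums of 2.02 to 2.44 in GR-C3 vehicle and 0.563 to 0.711 in WT vehicle and a change of Krt18 of 2.30 ± 0.15. Of 2 tested endothelial markers 1 was higher, Kdr with 1.44 ± 0.14, and the sums were 0.333 to 0.358 in GR-C3 vehicle and 0.188 to 0.253 in WT vehicle. The 1 tested hepatocyte marker, Afp, was higher by 0.89 ± 0.16, with sums of 0.0548 to 0.0642 in GR-C3 vehicle and 0.0318 to 0.0417 in WT vehicle. Of 4 macrophage markers 1 was lower (2 over 11 arrays), and the list summed to 0.375 to 0.402 in GR-C3 vehicle and 0.34 to 0.482 in WT vehicle. The defining markers Cdh1 (epithelial), Cdh5 (endothelial) and Ttr (hepatocyte) were well above background on no array. The part of these markers in the genotype differences of Mest, H19, Meg3 and Peg3 was not tested, and in bulk RNA fewer cells of a type and less RNA per cell cannot be told apart.

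**Figure D5:**
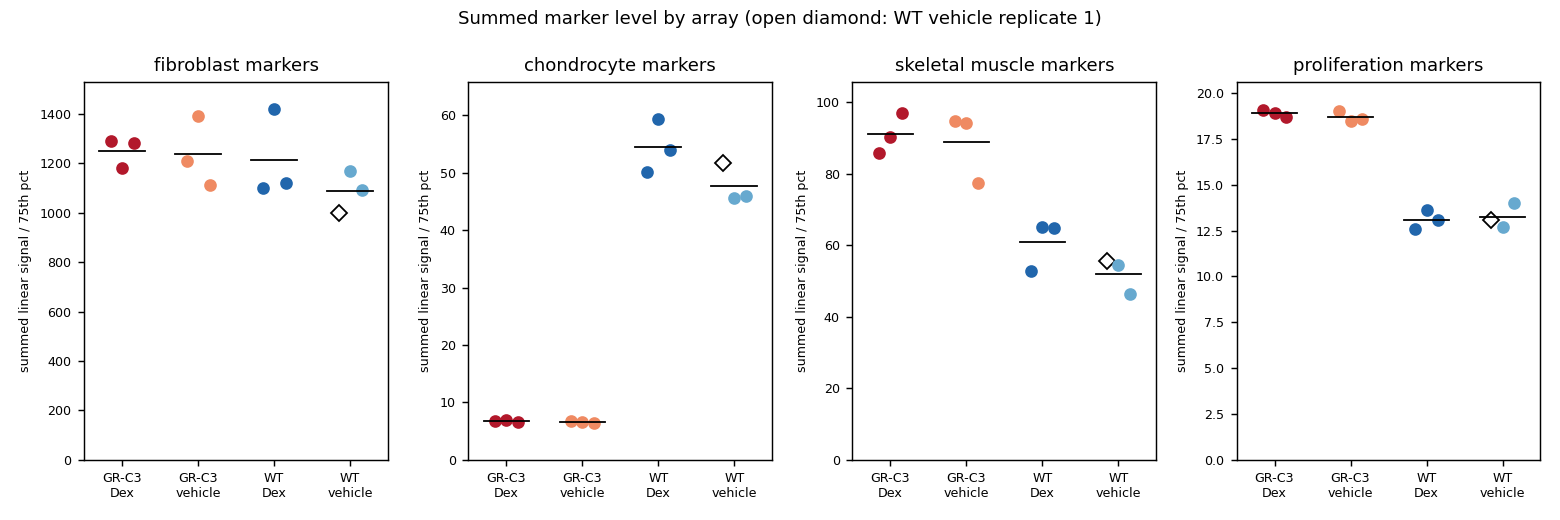
Summed linear signal of 4 marker lists on each array, relative to the array's 75th percentile signal, with axes from 0; points are arrays, bars are means of 3 and the open diamond is WT vehicle replicate 1. Chondrocyte markers sum to 6.41 to 6.73 in GR-C3 vehicle and 45.6 to 51.7 in WT vehicle.

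No slide held both genotypes under 1 treatment, so slide and genotype are only partly separable. With slide as a fixed block the change of Mest under vehicle was -2.30 (adjusted p = 0.00444). H19 at 0.72 (adjusted p = 0.323), Meg3 at -0.99 (adjusted p = 0.324) and Peg3 at -0.45 (adjusted p = 0.645) were no longer called. In that fit 1630 of all genes were called under vehicle, against 5160 without the block. WT vehicle replicate 1 was alone on its slide, so the block left it out of the comparison. The vehicle groups shared no slide and were compared through the WT Dex arrays. The cause of the lost calls was not tested. On the slide with both genotypes, GR-C3 vehicle minus WT Dex was -0.73 for Peg3, -0.57 for Meg3 and -0.16 for H19. These arrays differ in treatment too. For H19, WT Dex lay 1.01 ± 0.19 above WT vehicle, a change called over 11 arrays and not over 12.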

How the data were processed

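Cy3-labelled RNA of 12 samples was measured on 12 Agilent arrays of 1 colour, spread over 4 slides, and the labels put the samples in 4 groups of 3. The deposited scanner files hold background-subtracted spot intensity values on a linear scale, made by the authors with Agilent Feature Extraction 9.5.3.1 per the file headers (9.5 per the submitters' processing notes). The deposited series matrix held the same intensity values to within 1e-09 at each of 45018 spots. Its column medians ran from 77.9 to 154, so its scale was linear and uncentred.

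Each signal was divided by its array's 75th percentile (884.3 to 1821) and log2 taken. Control spots and outlier spots were left out, saturated spots kept, and spots of a probe averaged. Probes detected well above background on every array of 1 group or more were kept (30935 of 41174). A gene was represented by its kept probe with the highest mean, and probe names were updated through a RefSeq gene table (22951 by accession, 6659 by symbol, 3109 by synonym, 8455 kept as in the files). The comparisons used limma 3.58.1 (R 4.3.3; 1 coefficient per group over 12 arrays, eBayes) with Benjamini-Hochberg adjustment over all 20836 genes, or over all kept probes where probes are compared. The fit was tested on simulated data. Promoter windows came from RefSeq (GRCm38.p6), and 7 of the 10 members had one.

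The members were given by name. The members, the lists of other imprinted genes and markers, and the rule for naming genes (all members, and up to 4 called genes of each list with the smallest p, or up to 2 with the highest signal) were chosen with earlier results of these data known. Outside that rule, Cdkn1c, Copg2, Casd1, Mirg, Dio3 and the markers Col2a1, Sox9, Comp, Actc1, Des, Myod1, Myog, Krt18, Kdr and Afp were named for their place beside the members or in a list. Replicate numbers are in the labels. Deviations of same-numbered samples correlated at -0.22 to 0.18, and the numbers were not taken to pair the samples. With 3 samples in a group, low correlations cannot exclude a pairing. Alternatives changed the scaling, the background correction, the filter, the probe rule, the slide block, the replicate block, the groups in the fit and the arrays left out. No library size applies to arrays.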

Additional observations from a re-analysis of the deposited data

How the results depend on the processing

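Mest kept its direction and its call under all 22 alternatives in each genotype comparison, and leaving out 1 array gave log2 changes of -2.74 to -2.45 under vehicle and -2.25 to -2.12 under Dex. The 4 members called under vehicle became 3 to 5 when 1 array was left out, with 3241 to 5687 of all genes called. The 4 became 1 with normexp background correction and 1 with slide as a fixed block (Mest in both). With slide as a random block they became 2 (1 higher, 1 lower), with 3603 of all genes called. Other alternatives raised the count. It was 6 with quantile scaling and 6 with the mean of the probes of a gene (1 higher and 5 lower in each). Of all genes 5124 and 4837 were called there. With only the groups compared it was 5 (2 higher, 3 lower), with 3867 of all genes called. The 4 called under Dex became 2 to 4 when 1 array was left out, with 4001 to 8483 of all genes called. They became 1 with normexp, 1 with slide as a fixed block and 2 with slide as a random block, which called 4583 of all genes. With quantile scaling of 11 arrays 5 members were called under Dex and 5 under vehicle. Of all genes 8549 and 5881 were called there. Dex in WT cells gave 0 to 1 when 1 array was left out, the 1 being H19 without WT vehicle replicate 1. It gave 1 with quantile scaling of 11 arrays, an alternative added after seeing the data, with 2933 of all genes called. Dex in GR-C3 cells and the interaction gave 0 under every alternative, where at most 1023 and 371 of all genes were called. Sgce under Dex turned to 0.11 with normexp (adjusted p = 0.69), the 1 reversal. With normexp the median of all genes was 0.29 under vehicle and -0.40 under Dex, against 0.11 and 0.13, and 377 and 455 genes were called, against 5160 and 6175. Some local backgrounds it uses reach 65361. With those repaired, an alternative added after seeing the data, 4 members were called under vehicle and 3 under Dex. Among all genes 4395 and 4508 were then called. Slide as a fixed block called 1630 and 3240 genes, and Dex in WT cells called 25 genes over 12 arrays and 2548 over 11. The replicate block left 4 members called under vehicle (5048 of all genes) and changed no other member count by over 1.5 times. The replicate numbers share no source in the labels. The cause of the losses was not tested for any alternative. Peg10 and 1 Peg3 probe lay near background, so their differences were not measurable.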

Other observations

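Of 16 tested genes listed as regulators of imprinting, 2 were higher and 1 was lower in GR-C3 than in WT cells under vehicle. Of all genes 24.8% were called there. Under Dex 3 were higher and 0 lower over 12 arrays (29.6% of all genes called) and 7 higher and 0 lower over 11 (40.7%). Ezh2, the histone H3 lysine methyltransferase of the Polycomb complex, changed by 0.47 ± 0.10 (adjusted p = 0.00598) and Trim28, a corepressor that protects imprints in mouse embryos, by 0.60 ± 0.13 (adjusted p = 0.00879). Tet2, which oxidises methylcytosine, changed by -0.63 ± 0.14 (adjusted p = 0.0081). The proliferation markers given in the report moved the same way as Ezh2, and their part was not tested.

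With Dex, limma called 0 of the 35 tested imprinted neighbours in GR-C3 cells and 0 in WT cells over 12 arrays. Of all genes 0.101% and 0.12% were called there. An unadjusted p under 0.05 was reached by 4 neighbours in GR-C3 cells, against 11.8% of all genes. In WT cells 11 neighbours reached it, against 16.7% of all genes. Over the 11 arrays without WT vehicle replicate 1, 4 were called in GR-C3 cells, all higher, against 3.47% of all genes, and 4 higher and 3 lower in WT cells, against 12.2%. The values that follow are over those 11 arrays. Atp10a, the gene of a phospholipid-transporting ATPase, changed by 1.01 ± 0.086 in GR-C3 cells (adjusted p = 0.000199) and by 1.41 ± 0.097 in WT cells (adjusted p = 1.67e-05). Ddc, which encodes aromatic L-amino acid decarboxylase and neighbours Grb10, changed by 0.89 ± 0.082 in GR-C3 cells (adjusted p = 0.000317) and by 1 ± 0.092 in WT cells (adjusted p = 9.96e-05). Rian, a noncoding RNA gene next to Meg3, was chosen after its values were seen: its level was 3.89 on WT vehicle replicate 1, -1.62 on replicate 2 and -1.48 on replicate 3 of that group.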
